A study of Mus musculus with 24 samples.

Results

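The genes described here are 39 genes of the G2 phase and of mitosis, chosen by name: regulators of mitotic entry, parts of the kinetochore and spindle, condensin subunits, cytokinesis genes and genes of mitotic exit. All 39 were found by symbol among the 55335 genes of the count table, and all 39 passed the filter on low counts that left 15953 genes. They were measured by RNA sequencing in iNKT cells (invariant natural killer T cells, which carry a nearly uniform receptor for lipids held by CD1d) taken from mesenteric lymph nodes 24 h after oral gavage. The question addressed is whether genes of mitosis, or only genes of S phase entry, were raised at that time.

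All mice were C57BL/6J, and all groups were given 200 µL by gavage. Mice of the aGC groups received 2 µg of alpha-galactosylceramide (aGC), a strong lipid ligand for these cells, and mice of the PBS groups received only the PBS in which it was dissolved. KO FT mice were born to dams given a fecal transplant (FT) from donors without CD1d, and WT FT mice to dams given one from wild-type donors. The 8 groups of 3 libraries, 24 in all, were KO FT aGC males, KO FT aGC females, KO FT PBS males, KO FT PBS females, WT FT aGC males, WT FT aGC females, WT FT PBS males and WT FT PBS females. KO FT thus names the transplant and not the genotype of the mice, and its donor cannot be told apart from dam, litter or cage. The sources used here give no age, no number of mice per library and no sort gate. Whether the 3 libraries of a group stem from different mice is likewise not stated, so that the spread behind each p-value is that between libraries and may be technical.

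A T cell that is called to divide first raises genes of DNA replication as it enters S phase, and raises genes of mitosis later, in G2. The cyclin B kinase then drives entry into mitosis, condensin and topoisomerase II compact and untangle the chromosomes, and kinetochores attach them to the spindle under the watch of a checkpoint. The anaphase-promoting complex ends the arrest, and the central spindle places the cleavage furrow. Many of these genes are kept silent in resting cells by the DREAM complex and switched on in G2 by B-Myb and FoxM1 through a promoter element named the cell cycle genes homology region (CHR), often beside CCAAT boxes, while S phase genes carry E2F sites.

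The promoters of 7 members are shown because the results turn on these genes: Cdk1 and Ncaph, which were higher after aGC in every sex and transplant group, the widely used cycling markers Top2a and Mki67, the anaphase gene Cdc20, and Racgap1 and Kif23, which moved in opposite directions in the sexes. They are RefSeq sequences of build GRCm38.p6, each running from 120 bases ahead of the annotated start to at most 30 bases into the transcript. Capitals mark TTTGAA or TTCGAA (the CHR forms searched) and CCAAT, on either strand, so that TTCAAA and ATTGG mark the reverse strand.
Cdk1 (chr10:69352909-69353032, minus strand): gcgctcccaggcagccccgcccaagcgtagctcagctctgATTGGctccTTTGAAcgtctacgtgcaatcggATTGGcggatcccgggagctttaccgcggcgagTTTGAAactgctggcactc
Ncaph (chr2:127133925-127134074, minus strand): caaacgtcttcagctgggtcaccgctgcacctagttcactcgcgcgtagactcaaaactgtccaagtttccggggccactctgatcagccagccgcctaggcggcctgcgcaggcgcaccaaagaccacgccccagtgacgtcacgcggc
Top2a (chr11:99024160-99024309, minus strand): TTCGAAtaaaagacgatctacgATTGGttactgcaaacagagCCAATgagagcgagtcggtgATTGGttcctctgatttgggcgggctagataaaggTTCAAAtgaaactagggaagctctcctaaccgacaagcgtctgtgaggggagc
Mki67 (chr7:135716350-135716499, minus strand): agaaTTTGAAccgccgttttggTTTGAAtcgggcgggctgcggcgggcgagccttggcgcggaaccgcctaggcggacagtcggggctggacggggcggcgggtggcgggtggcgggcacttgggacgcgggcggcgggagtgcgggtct
Cdc20 (chr4:118437323-118437463, minus strand): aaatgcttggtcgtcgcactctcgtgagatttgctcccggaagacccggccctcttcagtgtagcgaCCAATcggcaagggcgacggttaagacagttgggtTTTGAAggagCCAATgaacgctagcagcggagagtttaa
Racgap1 (chr15:99651627-99651776, minus strand): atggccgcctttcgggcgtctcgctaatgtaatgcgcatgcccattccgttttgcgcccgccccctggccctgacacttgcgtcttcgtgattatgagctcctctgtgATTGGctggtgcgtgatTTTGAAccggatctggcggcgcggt
Kif23 (chr9:61946770-61946919, minus strand): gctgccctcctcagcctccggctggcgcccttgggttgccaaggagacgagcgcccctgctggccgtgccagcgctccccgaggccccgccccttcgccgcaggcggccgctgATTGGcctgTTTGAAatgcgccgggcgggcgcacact

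RefSeq promoters of 300 bases (250 before the start and 50 after) were held for 32 of the 39 members. A CHR form was found in 26 of these 32 (81.2%), against 6316 of all 32851 promoters (19.2%) and 10 of 39 S phase genes (25.6%). Members and S phase genes were counted by gene, with a match in any of its promoters, and the whole set by promoter. A CCAAT box stood in 25 of the 32 members (78.1%), against 37.4% of all promoters and 24 of the 39 S phase genes (61.5%). The E2F forms searched, TTTCCCGC, TTTGGCGC, TTTGCCGC and TTTCGCGC on either strand, stood in 3 of the 32 members (9.38%), against 2.26% of all promoters and 17 of the 39 S phase genes (43.6%). Both a CHR form and a CCAAT box stood in 23 members (71.9%) and in 7.52% of all promoters. The Ncaph window shown holds neither, while the Racgap1 and Kif23 windows each hold ATTGG followed by TTTGAA. Of the 13 members that rose in 3 or 4 of the 4 sex and transplant strata 9 had a CHR form, and of the 19 that rose in 0 to 2 strata 17 had one. A match to these letters is a description and not a shown binding site.

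Libraries held between 9764931 and 37016768 estimated counts. A count of 0 allows up to 3 counts, which is 0.081 to 0.307 CPM (counts scaled to a library total of 1000000) and takes in only the error of counting. The mitochondrial share was 0.148 to 0.373%. In WT FT females it moved with treatment, at 0.148 to 0.163% in the aGC libraries and 0.357 to 0.373% in the PBS libraries, and its part in the results was not tested. Trav11 and Traj18, the segments of the invariant receptor, and Zbtb16, the iNKT lineage factor, were present in every group. The summed level of 9 iNKT and T cell markers was 4838 to 5795 CPM in the aGC libraries and 6576 to 8719 in the PBS libraries, and 8 of the 9 fell after aGC in KO FT and 8 in WT FT. The CD8 co-receptor genes Cd8a and Cd8b1, markers of conventional CD8 T cells, were high in 4 of the 8 groups, and the pattern crossed sex and treatment. Their summed level was 494 to 523 CPM in KO FT aGC females, 393 to 396 in KO FT PBS males, 631 to 640 in WT FT aGC females and 854 to 863 in WT FT PBS males. It was 14.1 to 14.5 CPM in KO FT aGC males, 15.9 to 16.7 in KO FT PBS females, 17.3 to 19.8 in WT FT aGC males and 15.7 to 16.8 in WT FT PBS females. All labels were used as given. The labelled sex was borne out in all 24 libraries: Ddx3y, a gene of the Y chromosome, stood at 38.8 to 83.3 CPM on library totals in males and at most 0.473 in females, and Xist, the RNA of the inactive X chromosome, at most at 0.668 in males and at 7.99 to 48.3 in females. The treatment labels were not tested in this way, and an exchange of treatment between groups would turn the responses given for those groups. The summed level of 9 B cell markers moved with treatment, at 453 to 717 CPM in the aGC libraries and 969 to 1072 CPM in the PBS libraries, nearly all of it Ighm, with Pax5 at a mean of at most 0.762 CPM. The summed level of 6 germinal centre B and plasma cell markers was 10.95 to 28.2 CPM in the aGC libraries and 23.4 to 43.5 in the PBS libraries. The NK cell marker Ncr1 reached 2.06 to 4.08 CPM in KO FT aGC libraries of both sexes and at most 0.933 in the others. The summed level of 9 myeloid and dendritic cell markers was 29.5 to 33.4 CPM in KO FT aGC males against 9.64 to 11.2 in KO FT PBS males, and 12.2 to 14.7 in KO FT aGC females against 39.2 to 47.5 in KO FT PBS females. It was 19.1 to 21.7 CPM in WT FT aGC males against 28.4 to 34.7 in WT FT PBS males, and 15.7 to 18.4 in WT FT aGC females against 65.7 to 68.3 in WT FT PBS females. The part of these cells in the results was not tested. The summed levels of these myeloid markers and of 6 erythroid and stromal markers (38.6 to 89.5 CPM, nearly all of it Pecam1) stayed under those of the B cell markers, with the erythroid gene Hbb-bt at 0 in all groups.

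The mitosis genes were scarce in all 8 groups. Levels are CPM with TMM scaling (trimmed mean of M-values, which corrects for composition); 16 members stayed under a group mean of 10 CPM in every group and 31 under 25 CPM. Per kilobase of exon, the median of the 39 members was 1.89 CPM in KO FT aGC males and 1.46 in KO FT aGC females, against 0.824 in KO FT PBS males and 0.884 in KO FT PBS females. In WT FT it was 2.38 in aGC males and 1.97 in aGC females, against 0.620 in PBS males and 1.48 in PBS females. The median of 48 S phase entry and replication genes was between 5.27 and 8.87 times that of the mitosis genes in every group, at 12.5 CPM per kb in KO FT males, 10.4 in KO FT females, 18.4 in WT FT males and 15.5 in WT FT females after aGC. The median of all tested genes lay between 2.74 and 3.14 CPM per kb. Smc4, an ATPase of condensin, held the highest level per kb of any member in 7 of the 8 groups, between 15.3 and 23.4 CPM per kb, and Cdc20, an activator of the anaphase-promoting complex, did in WT FT aGC females at 20.5. In bulk RNA, fewer cells in mitosis and less mitotic RNA per cell cannot be told apart.

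**Figure D1:**
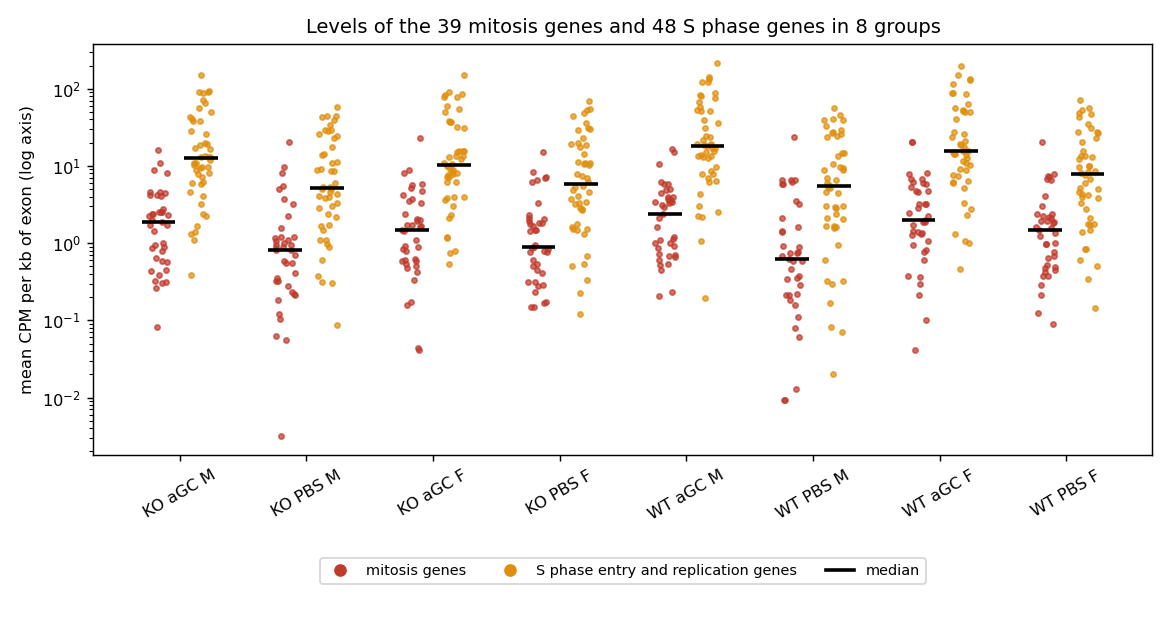
Mean level per kilobase of exon (log axis) of the 39 mitosis genes and 48 S phase genes in the 8 groups; each point is a gene and each bar a median, and Bub1, at 0 in WT FT PBS males, is not drawn there. The mitosis median was between 0.620 and 2.38 CPM per kb and the S phase median between 5.21 and 18.4.

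Averaged over the sexes, most mitosis genes rose after aGC in both transplant groups. On that average 27 of the 39 members rose and 1 fell in KO FT, with a median log2 change of 0.55, and 28 rose and 5 fell in WT FT, with a median of 1.24. These counts are from edgeR's quasi-likelihood test, adjusted by Benjamini-Hochberg over all tested genes with a threshold of 0.05. Over all tested genes 28.1% rose and 30.1% fell in KO FT, with a median log2 change of -0.03, and 30.9% rose and 37.5% fell in WT FT, with a median of -0.11. In females alone 15 members rose in KO FT and 19 in WT FT (27.7% and 28.6% of all tested genes). Racgap1 counts as risen on both averages, although it fell in males of both transplant groups. Every aGC library lay above every PBS library for 9 members in KO FT and 15 in WT FT, where 12.6% and 17.9% of all tested genes did, and below for 0 and 1, where 10.7% and 15.5% did. The B cell markers had lower summed levels in the aGC libraries, and the part of B cell RNA in these counts was not tested. The members that fell in KO FT numbered 2 without KO FT PBS female replicate 3, KO FT PBS male replicate 1 or KO FT aGC female replicate 2. Tested against a fold of 1.5 in place of no change, 9 members rose in KO FT and 24 in WT FT. The share of all tested genes on that test was not counted. Each group was also entered as 1 summed profile, with 1 sex term shared by all groups, which leaves 3 residual degrees of freedom. No member then passed in KO FT, and 4 rose in WT FT: Cdk1, Aurka, Bub1b and Cdc20. At an unadjusted p under 0.05 (edgeR), 6 members rose in KO FT, and 12 rose and 2 fell in WT FT. Of the 15953 tested genes 1618 rose and 1077 fell in KO FT at that limit, and 2429 rose and 1874 fell in WT FT. After adjustment 1.92% of all tested genes rose and 0.157% fell in KO FT, and 7.39% rose and 2.75% fell in WT FT. The biological coefficient of variation of that fit, 0.424, takes in differences of the sex effect between groups. It is thus another measure than the 0.108 between the libraries of a group.

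**Figure D2:**
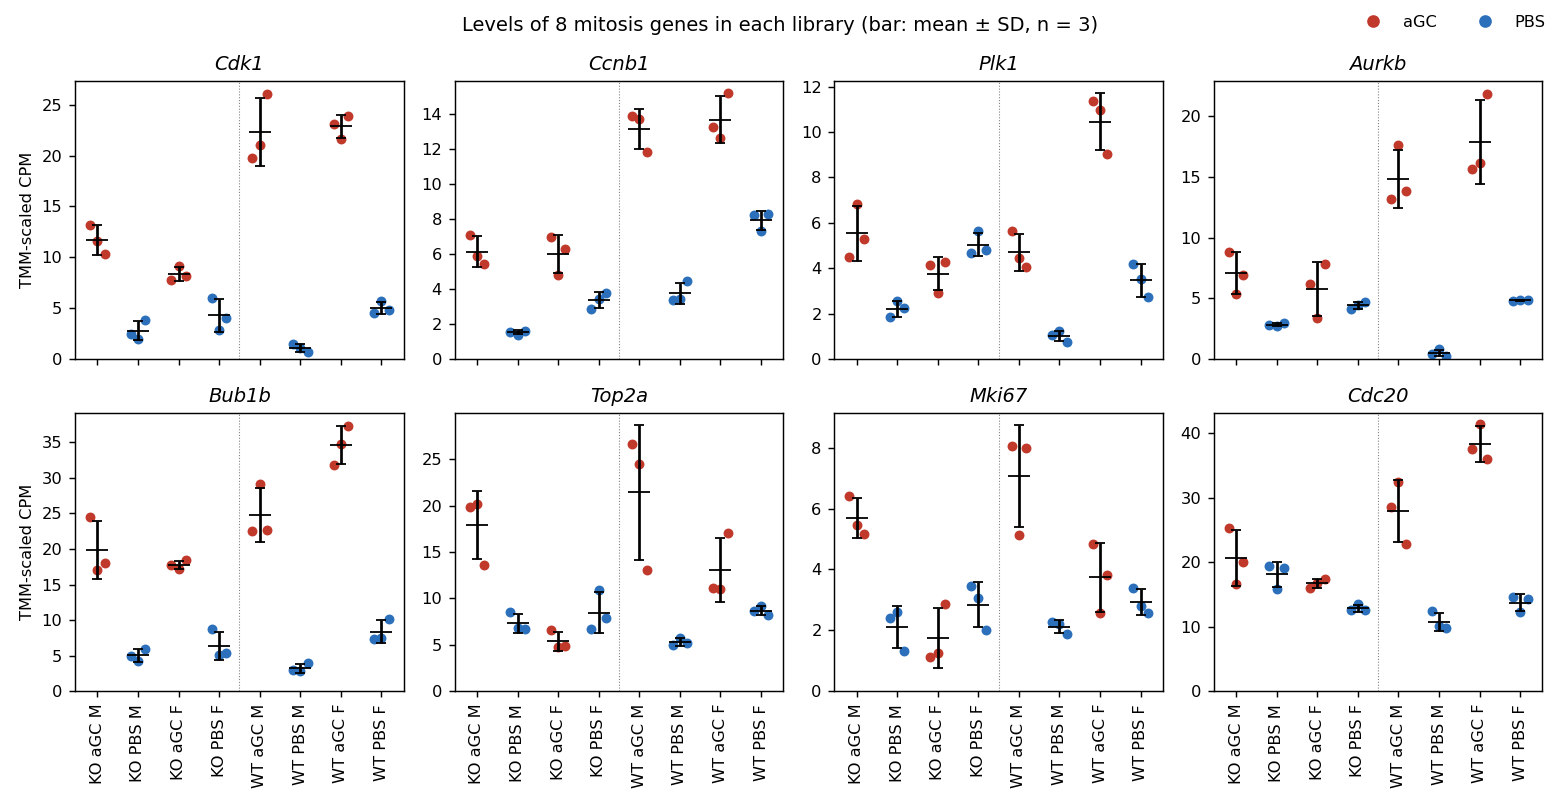
TMM-scaled CPM of 8 mitosis genes in each of the 24 libraries, with mean ± SD (n = 3) per group, KO and WT standing for the transplant and M and F for sex. Cdk1, Ccnb1 and Bub1b were higher in every aGC library than in every PBS library of the same sex and transplant, while Mki67 and Top2a overlapped or were lower after aGC in KO FT females.

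Among the kinases and cyclins of mitotic entry, Cdk1, the kinase at the centre of the switch (ENSMUSG00000019942.13, GRCm38 chromosome 10, 69335146 to 69352938), rose in all 4 combinations of sex and transplant, here called strata. In KO FT, Cdk1 stood at 13.2, 11.6 and 10.3 CPM in aGC males against 2.48, 1.99 and 3.82 in PBS males, and 7.75, 9.10 and 8.13 in aGC females against 5.99, 2.85 and 4.003 in PBS females. In WT FT it stood at 19.8, 21.1 and 26.1 CPM in aGC males against 1.43, 1.11 and 0.671 in PBS males, and 23.1, 21.6 and 23.9 in aGC females against 4.51, 5.69 and 4.804 in PBS females. Within a transplant group, no PBS library reached the lowest aGC library, and the WT FT aGC libraries lay above all KO FT ones. The log2 change was 1.54 ± 0.17 (SE) in KO FT (edgeR, adjusted p = 3.04e-08) and 3.29 ± 0.17 in WT FT (adjusted p = 3.14e-14).

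Ccnb1, the B-type cyclin that activates Cdk1 (ENSMUSG00000041431.16, GRCm38 chromosome 13, 100778650 to 100786570), rose in all 4 strata. In KO FT, Ccnb1 had 7.09, 5.89 and 5.40 CPM in aGC males against 1.55, 1.39 and 1.60 in PBS males, and 6.95, 4.79 and 6.25 in aGC females against 2.84, 3.45 and 3.74 in PBS females. In WT FT, Ccnb1 had 13.9, 13.7 and 11.8 CPM in aGC males against 3.37, 3.44 and 4.43 in PBS males, and 13.2, 12.6 and 15.2 in aGC females against 8.22, 7.30 and 8.25 in PBS females. The aGC and PBS libraries did not overlap within a transplant group, with a log2 change of 1.43 ± 0.13 in KO FT and 1.30 ± 0.11 in WT FT. The second B-type cyclin gene, Ccnb2, did otherwise: it rose by 5.66 ± 0.36 on the log2 scale in KO FT males, where PBS levels were 0, 0.203 and 0.0889 CPM, fell by 0.73 in KO FT females and by 1.68 in WT FT females, and did not pass in WT FT males (0.18 ± 0.22). Ccnb1 has 4 near-identical copies in the annotation, with identities from 94.4 to 99.2% and mean levels of at most 0.058 CPM without TMM scaling, so a share of its reads may be split among them.

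Plk1, the polo-like kinase of centrosomes and kinetochores (ENSMUSG00000030867.7, GRCm38 chromosome 7, 122159439 to 122169873), rose in 3 strata. In KO FT, Plk1 had 4.48, 6.85 and 5.26 CPM in aGC males against 1.86, 2.54 and 2.22 in PBS males, and 4.13, 2.90 and 4.25 in aGC females against 4.68, 5.64 and 4.79 in PBS females. In WT FT, Plk1 had 5.62, 4.46 and 4.04 CPM in aGC males against 1.06, 1.22 and 0.760 in PBS males, and 11.4, 10.99 and 9.05 in aGC females against 4.16, 3.504 and 2.71 in PBS females. Within each sex of WT FT the aGC libraries lay above the PBS ones, whereas in KO FT females they lay below them. The log2 change was 1.90 ± 0.16 in WT FT (edgeR, adjusted p = 2.72e-10) and 0.44 ± 0.16 in KO FT (adjusted p = 0.0196), where the call was lost without KO FT aGC male replicate 2, KO FT aGC female replicate 3 or KO FT PBS male replicate 1 (adjusted p = 0.0591, 0.0606 and 0.0559). It was also lost without a filter on low counts (adjusted p = 0.11). A partner copy, Plk-ps1, stood at a mean of 0.234 CPM without TMM scaling.

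Aurka, the kinase of spindle poles, rose in all 4 strata. In KO FT, Aurka had 7.90, 7.07 and 6.19 CPM in aGC males against 5.27, 2.70 and 3.82 in PBS males, and 8.26, 9.81 and 6.82 in aGC females against 4.68, 5.71 and 5.15 in PBS females. In WT FT, Aurka had 10.7, 8.13 and 8.37 CPM in aGC males against 3.97, 2.77 and 3.76 in PBS males, and 15.3, 15.2 and 13.8 in aGC females against 5.44, 4.998 and 7.65 in PBS females. No aGC library overlapped a PBS library of its transplant group, and the log2 change was 0.78 ± 0.15 in KO FT and 1.34 ± 0.15 in WT FT. Ccna2, the cyclin of S phase and G2, rose in 3 strata, by 1.31 ± 0.22 in KO FT males, 1.10 ± 0.22 in WT FT males and 1.57 ± 0.21 in WT FT females, and did not pass in KO FT females (0.30 ± 0.22). Of the exon bases of Ccna2 12.5% overlap those of Exosc9 on the opposite strand. Of the 6 genes of this group 6 rose in KO FT, and 5 rose and 1 fell in WT FT.

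The chromosomal passenger complex corrects faulty kinetochore attachments. Its kinase Aurkb (ENSMUSG00000020897.12, GRCm38 chromosome 11, 69045647 to 69051664) and its targeting subunit Birc5 rose in both transplant groups, and its scaffold Incenp did not pass in any stratum. In KO FT, Aurkb had 8.84, 5.38 and 6.94 CPM in aGC males against 2.79, 2.70 and 2.93 in PBS males, and 6.14, 3.37 and 7.82 in aGC females against 4.10, 4.45 and 4.71 in PBS females. In WT FT, Aurkb had 13.2, 17.6 and 13.8 CPM in aGC males against 0.369, 0.776 and 0.268 in PBS males, and 15.6, 16.1 and 21.8 in aGC females against 4.78, 4.83 and 4.87 in PBS females. Groups did not overlap in WT FT, while in KO FT females 1 aGC library lay below all PBS ones. The log2 change of Aurkb was 0.86 ± 0.18 in KO FT and 3.44 ± 0.20 in WT FT, and that of Birc5 was 0.72 ± 0.12 in KO FT and 0.81 ± 0.11 in WT FT. In KO FT, Incenp had 38.8, 35.1 and 41.2 CPM in aGC males against 36.2, 39.1 and 29.6 in PBS males, and 37.2, 34.6 and 32.5 in aGC females against 31.4, 40.5 and 37.1 in PBS females. In WT FT, Incenp had 28.2, 23.1 and 28.9 CPM in aGC males against 24.99, 30.4 and 19.9 in PBS males, and 32.2, 28.4 and 27.9 in aGC females against 34.3, 30.4 and 28.1 in PBS females. All groups of a transplant overlapped, with log2 changes of 0.03 ± 0.10 in KO FT and 0.01 ± 0.10 in WT FT.

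Kinetochore and checkpoint genes rose in 6 of 10 cases in KO FT and 8 of 10 in WT FT, with 1 lower in each. Bub1b, which holds back the anaphase-promoting complex until all chromosomes are attached (ENSMUSG00000040084.9, GRCm38 chromosome 2, 118598211 to 118641591), rose in all 4 strata. In KO FT, Bub1b had 24.6, 17.0 and 17.98 CPM in aGC males against 4.96, 4.19 and 5.96 in PBS males, and 17.7, 17.2 and 18.4 in aGC females against 8.68, 5.11 and 5.37 in PBS females. In WT FT, Bub1b had 22.5, 29.2 and 22.6 CPM in aGC males against 2.95, 2.77 and 3.89 in PBS males, and 31.9, 34.8 and 37.3 in aGC females against 7.34, 7.53 and 10.2 in PBS females. The aGC and PBS libraries of a transplant group did not overlap, with a log2 change of 1.74 ± 0.14 in KO FT (edgeR, adjusted p = 1.7e-10) and 2.50 ± 0.14 in WT FT (adjusted p = 9.42e-14). Cenpa, the histone variant that marks centromeres, went the other way. In KO FT, Cenpa had 21.3, 24.9 and 27.8 CPM in aGC males against 31.1, 29.7 and 26.4 in PBS males, and 24.0, 29.4 and 29.8 in aGC females against 39.8, 43.7 and 43.5 in PBS females. In WT FT, Cenpa had 22.5, 21.7 and 24.8 CPM in aGC males against 35.96, 40.8 and 38.2 in PBS males, and 24.8, 27.1 and 32.2 in aGC females against 39.4, 38.4 and 36.9 in PBS females. Every aGC library lay below every PBS library in WT FT, and the groups overlapped in KO FT males. The log2 change of Cenpa was -0.42 ± 0.08 in KO FT and -0.60 ± 0.08 in WT FT.

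The Ndc80 complex, whose subunits Ndc80, Nuf2, Spc24 and Spc25 grip microtubules, showed how far the response varied by stratum. In WT FT males the log2 change was 2.33 ± 0.14 for Ndc80, 2.46 ± 0.27 for Nuf2, 2.92 ± 0.19 for Spc24 and 2.76 ± 0.23 for Spc25, and all of them rose. In KO FT males it was 0.66 ± 0.14 for Ndc80, 0.67 ± 0.26 for Nuf2, 1.86 ± 0.19 for Spc24 and 0.97 ± 0.22 for Spc25, and all of them rose. In WT FT females Nuf2 and Spc24 rose and Ndc80 and Spc25 did not pass, and in KO FT females none of the subunits passed (log2 changes between -0.15 and 0.37). The checkpoint kinase Bub1 was at 0 counts in all 3 WT FT PBS male libraries and held 125 counts in the 3 WT FT aGC male libraries, at least 61.4-fold higher against a floor of 3 counts over the group. Ttk, the kinase that starts the checkpoint, had 93 counts in WT FT aGC males and 3 in WT FT PBS males, a ratio of 45.7 (95% interval by counting error 15.2 to 225). Cenpf, a kinetochore protein, had 66 counts in KO FT aGC males and 3 in KO FT PBS males, a ratio of 23.6 (7.75 to 118). Ttk and Cenpf fell in KO FT females (log2 change -1.99 ± 0.75 and -1.84 ± 0.55), at levels under 5 CPM in every library. The kinetochore motor Cenpe did not pass in any stratum, with log2 changes between -0.90 and 0.88.

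Spindle motors and assembly factors rose in 4 of 6 cases in KO FT, and 3 rose and 1 fell in WT FT. Kif11, the motor that pushes spindle poles apart, was at or near 0 in WT FT PBS males. In KO FT, Kif11 had 8.23, 7.73 and 3.21 CPM in aGC males against 2.79, 2.37 and 2.13 in PBS males, and 3.83, 5.42 and 2.88 in aGC females against 3.05, 2.92 and 5.45 in PBS females. In WT FT, Kif11 had 8.57, 10.53 and 6.46 CPM in aGC males against 0, 0.111 and 0.179 in PBS males, and 3.95, 4.41 and 5.15 in aGC females against 2.91, 2.70 and 2.84 in PBS females. No libraries overlapped in WT FT, and in KO FT the females overlapped. The log2 change of Kif11 was 3.52 ± 0.31 in WT FT and 0.72 ± 0.24 in KO FT (edgeR, adjusted p = 0.0136), where the call was lost without KO FT aGC female replicate 2 (adjusted p = 0.0524). That call was also lost with limma-voom (adjusted p = 0.0504). Tpx2, which activates Aurka on the spindle, moved in opposite directions in the transplant groups. In KO FT, Tpx2 had 9.04, 7.14 and 7.78 CPM in aGC males against 4.65, 4.19 and 4.62 in PBS males, and 6.14, 5.89 and 8.44 in aGC females against 4.57, 3.52 and 3.61 in PBS females. In WT FT, Tpx2 had 4.95, 3.73 and 3.60 CPM in aGC males against 8.44, 6.93 and 7.38 in PBS males, and 6.33, 8.14 and 11.8 in aGC females against 10.9, 6.204 and 10.1 in PBS females. The aGC libraries lay above the PBS ones in KO FT, below them in WT FT males, and among them in WT FT females. Its log2 change was 0.83 ± 0.16 in KO FT (edgeR, adjusted p = 0.000128) and -0.48 ± 0.16 in WT FT (adjusted p = 0.0103). Kif2c, which removes tubulin from microtubule ends, rose in KO FT males (2.87 ± 0.42), WT FT males (1.76 ± 0.36) and WT FT females (1.03 ± 0.34), and had a KO FT PBS male library at 0. The chromosome motor Kif4 rose in KO FT (2.31 ± 0.40) and did not pass in WT FT (-0.19 ± 0.35). Of the exon bases of Kif4 15.1% overlap those of Pdzd11 on the opposite strand. The spindle protein Hmmr rose in WT FT (0.71 ± 0.17) and did not pass in KO FT (0.31 ± 0.18), and Nusap1, which bundles spindle microtubules, passed in neither (-0.38 ± 0.21 in KO FT and 0.01 ± 0.20 in WT FT).

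Of 7 genes of chromosome structure 4 rose in KO FT, and 5 rose and 2 fell in WT FT. Mki67, which coats mitotic chromosomes and is read as a marker of cycling cells (ENSMUSG00000031004.8, GRCm38 chromosome 7, 135689784 to 135716361), did not exceed 8.05 CPM in any library. In KO FT, Mki67 had 6.43, 5.45 and 5.17 CPM in aGC males against 2.40, 2.60 and 1.33 in PBS males, and 1.11, 1.26 and 2.88 in aGC females against 3.47, 3.05 and 2.02 in PBS females. In WT FT, Mki67 had 8.05, 5.13 and 8.01 CPM in aGC males against 2.26, 2.22 and 1.88 in PBS males, and 4.83, 2.57 and 3.82 in aGC females against 3.39, 2.81 and 2.57 in PBS females. In both transplant groups the aGC males lay above the PBS males, and the females overlapped. The log2 change was 1.39 ± 0.31 in KO FT males, -0.65 ± 0.33 in KO FT females (not passed), 1.73 ± 0.31 in WT FT males and 0.33 ± 0.31 in WT FT females (not passed).

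Top2a, the topoisomerase that untangles sister chromatids (ENSMUSG00000020914.17, GRCm38 chromosome 11, 98992943 to 99024189), rose in males and fell in KO FT females. In KO FT, Top2a had 19.8, 20.2 and 13.6 CPM in aGC males against 8.52, 6.83 and 6.67 in PBS males, and 6.55, 4.71 and 4.88 in aGC females against 6.68, 10.9 and 7.87 in PBS females. In WT FT, Top2a had 26.7, 24.5 and 13.1 CPM in aGC males against 4.93, 5.76 and 5.14 in PBS males, and 11.1, 10.99 and 17.0 in aGC females against 8.59, 9.19 and 8.25 in PBS females. The aGC libraries were higher in WT FT of either sex and in KO FT males, and lower in KO FT females. The log2 change was 1.28 ± 0.24 in KO FT males, -0.66 ± 0.25 in KO FT females, 2.02 ± 0.24 in WT FT males and 0.58 ± 0.23 in WT FT females.

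Of the condensin subunits, Ncaph and Ncapg rose in all 4 strata, by 1.67 ± 0.09 and 2.00 ± 0.17 in KO FT and 1.85 ± 0.09 and 2.29 ± 0.18 in WT FT on the log2 scale. Of the exon bases of Ncapg 13.4% overlap those of Lcorl on the opposite strand, and the library preparation does not keep the strand. Lcorl stood at a mean of 3.78 CPM beside 3.91 CPM for Ncapg without TMM scaling, so the counts of Ncapg are uncertain. The ATPase subunits Smc2 and Smc4 form the core of condensin. In KO FT, Smc2 had 41.3, 53.8 and 36.8 CPM in aGC males against 19.5, 19.5 and 22.1 in PBS males, and 33.2, 28.9 and 30.3 in aGC females against 31.4, 40.4 and 35.1 in PBS females. In WT FT, Smc2 had 59.5, 51.4 and 64.1 CPM in aGC males against 32.8, 33.9 and 36.4 in PBS males, and 33.4, 40.8 and 37.3 in aGC females against 36.1, 36.2 and 38.5 in PBS females. Males were higher after aGC in both transplant groups and females overlapped, with a log2 change of 0.45 ± 0.09 in KO FT and 0.39 ± 0.08 in WT FT. In KO FT, Smc4 had 83.3, 96.8 and 72.6 CPM in aGC males against 102, 111 and 105 in PBS males, and 130.2, 114 and 117 in aGC females against 81.8, 87.9 and 69.3 in PBS females. In WT FT, Smc4 had 88.7, 78.8 and 94.6 CPM in aGC males against 112, 125 and 129 in PBS males, and 102, 100.5 and 116 in aGC females against 99.8, 111 and 104 in PBS females. It was higher after aGC in KO FT females and lower in males of both transplant groups, and its log2 change was 0.13 ± 0.07 in KO FT (not passed) and -0.23 ± 0.07 in WT FT. Ncapd2 rose in KO FT (0.55 ± 0.14) and fell in WT FT (-0.66 ± 0.14).

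Both subunits of centralspindlin, the complex that bundles the central spindle and recruits the cleavage machinery, moved in opposite directions in the sexes. In KO FT, Racgap1 (ENSMUSG00000023015.14, GRCm38 chromosome 15, 99620496 to 99651656) had 19.1, 16.6 and 18.3 CPM in aGC males against 43.5, 36.3 and 38.2 in PBS males, and 41.8, 34.6 and 47.1 in aGC females against 14.0, 11.5 and 11.9 in PBS females. In WT FT, Racgap1 had 23.1, 22.7 and 27.5 CPM in aGC males against 49.5, 50.8 and 41.1 in PBS males, and 55.5, 56.7 and 52.8 in aGC females against 20.5, 24.1 and 19.3 in PBS females. Without overlap, aGC females lay above PBS females and aGC males lay below PBS males in both transplant groups. The log2 change was -1.12 ± 0.12 in KO FT males, 1.72 ± 0.12 in KO FT females, -0.95 ± 0.12 in WT FT males and 1.37 ± 0.12 in WT FT females. Its partner motor Kif23 (ENSMUSG00000032254.10, GRCm38 chromosome 9, 61915905 to 61946774) had log2 changes of -1.502 ± 0.30 in KO FT males, 1.66 ± 0.30 in KO FT females, -1.99 ± 0.28 in WT FT males and 1.41 ± 0.28 in WT FT females. Higher in females and lower in males of both transplants were 193 of the 15953 tested genes (1.21%), and among the 39 members only Racgap1 and Kif23 were. The reverse pattern held for no member and 0.564% of all tested genes.

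Within each transplant group, the groups in which Racgap1 and Kif23 were high are those in which the CD8 genes were high. Cd8a and Cd8b1 both rose after aGC in KO FT and WT FT females and both fell in KO FT and WT FT males. Between the high groups alone, aGC females against PBS males, Racgap1 changed by 0.07 ± 0.12 in KO FT (edgeR, adjusted p = 0.643) and 0.22 ± 0.11 in WT FT (adjusted p = 0.0882). Between the low groups alone, aGC males against PBS females, it changed by 0.53 ± 0.13 in KO FT (edgeR, adjusted p = 0.0012) and 0.20 ± 0.12 in WT FT (adjusted p = 0.168). Kif23 fell between the high groups in WT FT (-0.71 ± 0.26; edgeR, adjusted p = 0.0241) and did not pass in KO FT (0.06 ± 0.28; adjusted p = 0.887). Between the low groups Kif23 changed by 0.11 ± 0.32 in KO FT and 0.13 ± 0.30 in WT FT, and passed in neither (edgeR, adjusted p = 0.816 and 0.737). In these contrasts sex and treatment cannot be told apart, and the part of CD8 T cells in the result was not tested.

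**Figure D3:**
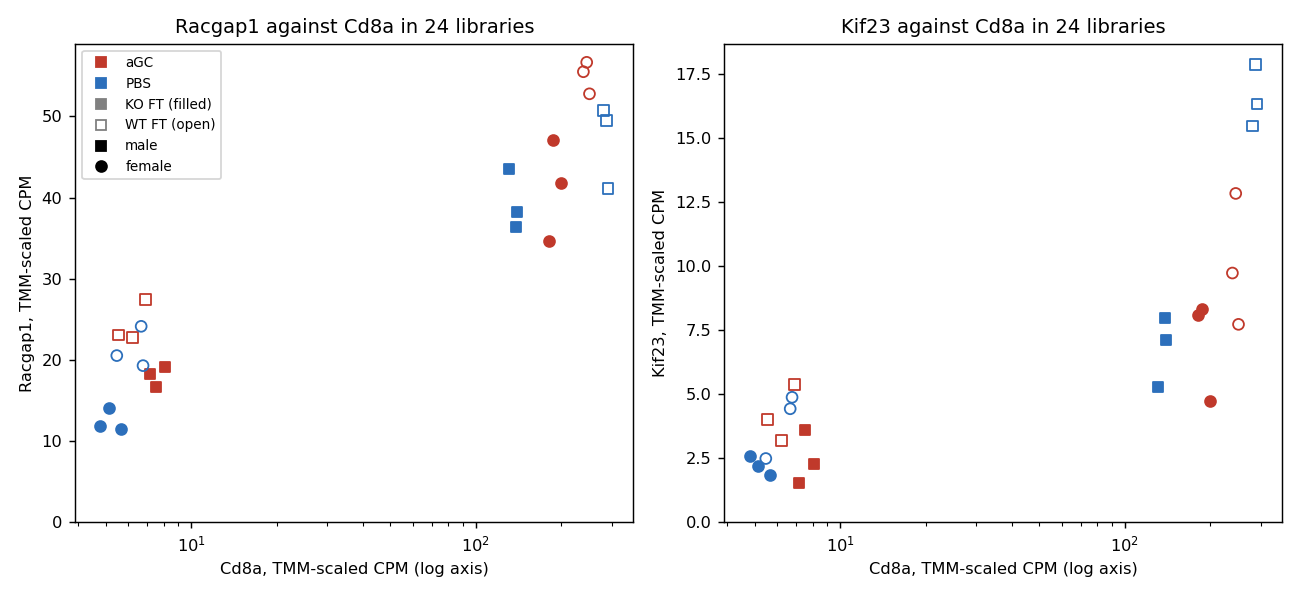
Racgap1 (left) and Kif23 (right) against Cd8a in each of the 24 libraries, in TMM-scaled CPM with a log axis for Cd8a. Libraries fall into a set with Cd8a at 4.79 to 8.10 CPM and a set at 131 to 292 CPM, and Racgap1 was at most 27.5 CPM in the first set and at least 34.6 in the second.

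The other cytokinesis genes varied too. Kif20a, a motor of the central spindle, had 10.1, 10.6 and 12.7 CPM in aGC males against 9.92, 8.76 and 10.7 in PBS males, and 12.6, 9.34 and 9.38 in aGC females against 5.89, 5.11 and 7.92 in PBS females in KO FT. In WT FT, Kif20a had 19.3, 14.2 and 12.6 CPM in aGC males against 12.5, 18.4 and 14.98 in PBS males, and 11.8, 8.20 and 9.21 in aGC females against 5.87, 5.17 and 8.25 in PBS females. The aGC females lay above the PBS females in KO FT, and the other pairs of groups overlapped. The log2 change of Kif20a was 0.45 ± 0.15 in KO FT (edgeR, adjusted p = 0.0118) and 0.31 ± 0.14 in WT FT (adjusted p = 0.0626), which passed without any 1 of 4 WT FT libraries (aGC male replicate 3, aGC female replicate 2, PBS male replicate 2 or PBS female replicate 3; adjusted p between 0.0167 and 0.0388). Of its exon bases 29.3% overlap those of Cdc23 on the opposite strand, and the library preparation does not keep the strand. Prc1, which crosslinks antiparallel microtubules, rose in males (2.82 ± 0.36 in KO FT and 3.69 ± 0.37 in WT FT), fell in KO FT females (-0.86 ± 0.33) and did not pass in WT FT females. Prc1 shares exon sequence with the neighbour Rccd1, at a mean of 35.8 CPM beside 4.39 CPM for Prc1 without TMM scaling, so its counts are uncertain. Anln, the anillin of the contractile ring, passed in no single stratum and rose in WT FT averaged over the sexes (0.86 ± 0.35).

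Both genes of mitotic exit rose. Cdc20, which activates the anaphase-promoting complex (ENSMUSG00000006398.15, GRCm38 chromosome 4, 118432901 to 118437352), rose in 3 strata. In KO FT, Cdc20 had 25.2, 16.6 and 20.03 CPM in aGC males against 19.4, 15.9 and 19.0 in PBS males, and 16.0, 16.7 and 17.4 in aGC females against 12.5, 13.47 and 12.6 in PBS females. In WT FT, Cdc20 had 28.6, 32.5 and 22.8 CPM in aGC males against 12.4, 10.1 and 9.79 in PBS males, and 37.6, 41.5 and 36.02 in aGC females against 14.6, 12.2 and 14.3 in PBS females. The WT FT groups did not overlap within a sex, the KO FT females did not overlap, and the KO FT males did. The log2 change was 1.43 ± 0.10 in WT FT (edgeR, adjusted p = 7.37e-12) and 0.29 ± 0.10 in KO FT (adjusted p = 0.0177), where the call was lost without KO FT aGC male replicate 1 or KO FT PBS male replicate 2 (adjusted p = 0.0618 and 0.0628). Ube2c, the ubiquitin-conjugating enzyme of that complex, had 0.937, 1.33 and 1.21 CPM in aGC males against 0.387, 0.642 and 0.800 in PBS males, and 1.51, 2.04 and 1.38 in aGC females against 1.21, 1.06 and 0.968 in PBS females in KO FT. In WT FT, Ube2c had 2.59, 2.73 and 3.23 CPM in aGC males against 0.646, 0.831 and 0.760 in PBS males, and 4.39, 4.91 and 3.98 in aGC females against 3.68, 3.04 and 3.04 in PBS females. It was higher after aGC in each stratum without overlap, with a log2 change of 0.76 ± 0.19 in KO FT and 1.18 ± 0.17 in WT FT, although the females passed in neither. Without a filter on low counts the KO FT call of Ube2c was lost (edgeR, adjusted p = 0.0806). Of the exon bases of Ube2c 22.8% overlap those of Tnnc2.

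Within the strata, 26 members rose and 3 fell in KO FT males, 15 rose and 6 fell in KO FT females, 26 rose and 6 fell in WT FT males, and 19 rose and 2 fell in WT FT females. Of all tested genes 26.8% rose and 26.7% fell in KO FT males, 27.7% and 28.3% in KO FT females, 31.7% and 34.9% in WT FT males, and 28.6% and 29.8% in WT FT females. Without overlap of libraries, 26 members were higher and 3 lower in KO FT males (27.5% and 29.5% of all tested genes), and 18 and 6 in KO FT females (29.9% and 31.4%). In WT FT it was 28 and 6 in males (33.2% and 37.9%) and 22 and 5 in females (31.9% and 33.9%). Without KO FT PBS female replicate 2, 3 members in place of 6 fell in KO FT females. Against a fold of 1.5, for which the share of all tested genes was not counted, 5 rose and 1 fell in KO FT females. The members that rose in all 4 strata were Cdk1, Ccnb1, Aurka, Bub1b, Ncapg and Ncaph, 6 of 39 (15.4%), against 10.6% of all tested genes, and no member fell in all 4 (6.86% of all tested genes; Cenpa fell in 3). A further 10 members rose in 3 strata, 14 in 2, 4 in 1 and 5 in none. Against 23.5% of all tested genes, 10 members rose in some strata and fell in others: Ccnb2, Ttk, Cenpf, Tpx2, Smc4, Ncapd2, Top2a, Kif23, Prc1 and Racgap1.

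**Figure D4:**
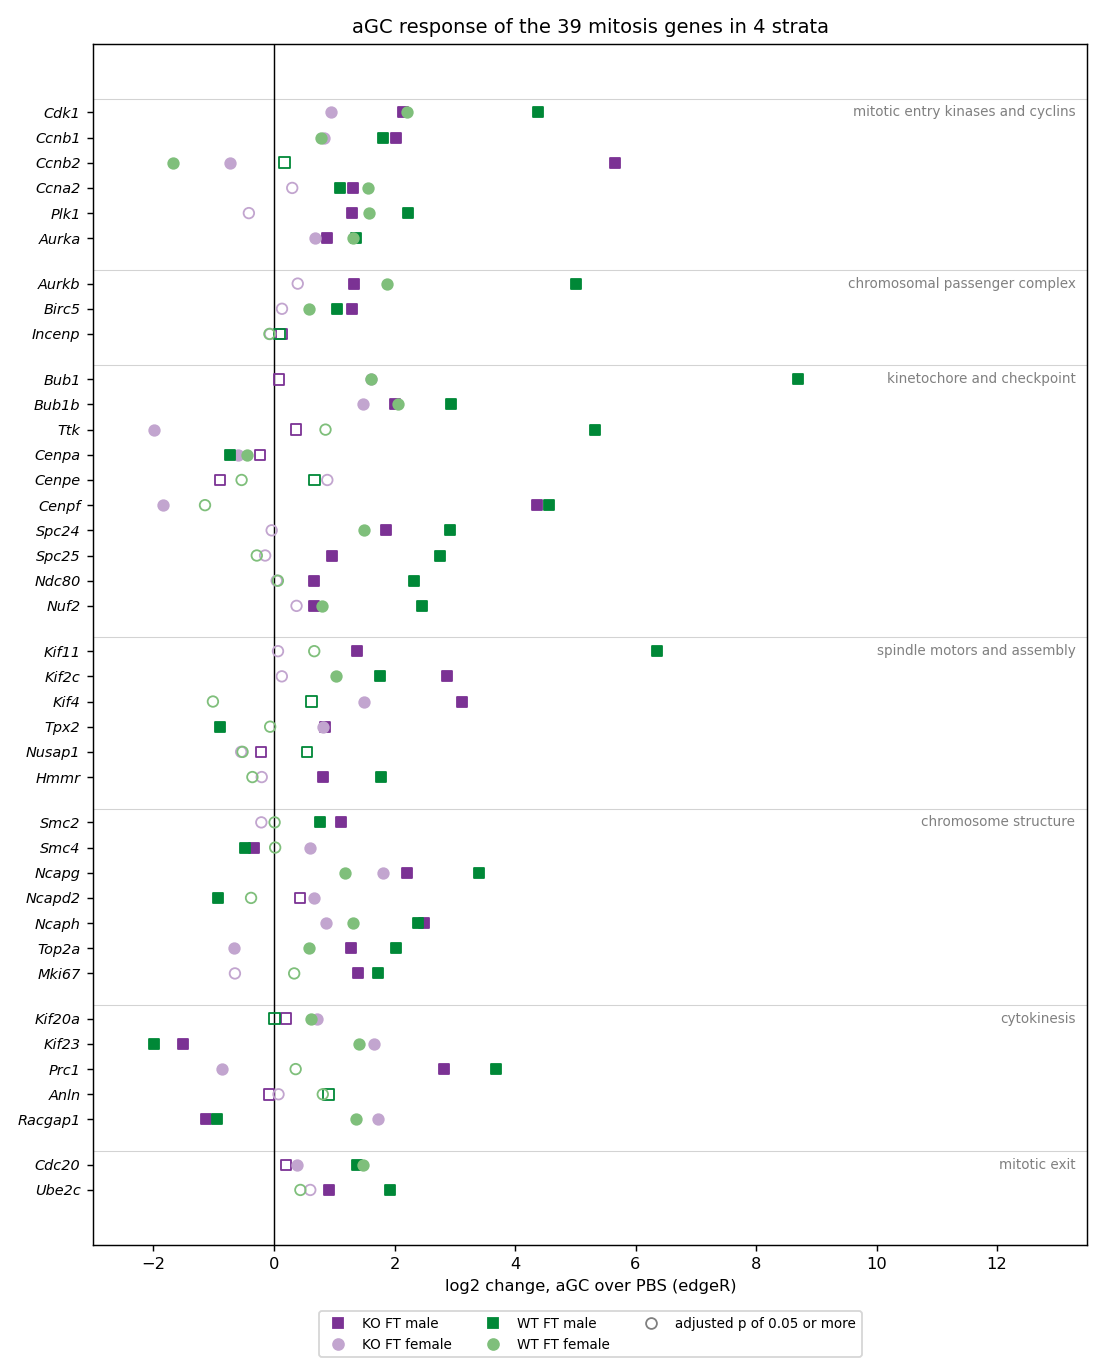
Log2 change (aGC over PBS, edgeR) of each of the 39 mitosis genes in KO FT males, KO FT females, WT FT males and WT FT females, grouped by role; open symbols have an adjusted p of 0.05 or more. Cdk1, Ccnb1, Aurka, Bub1b, Ncapg and Ncaph lie right of 0 with filled symbols in all 4 strata, and Racgap1 and Kif23 lie left of 0 in males and right of it in females.

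Some responses averaged over the sexes were lost when groups of like CD8 level were compared, with sex and treatment then not to be told apart. Between the low groups, Plk1, Aurka, Kif11 and Ube2c did not pass in KO FT (edgeR, adjusted p = 0.63, 0.0865, 0.074 and 0.773), nor did Plk1 and Ube2c in WT FT (adjusted p = 0.0961 and 0.475). Between the high groups, Cenpa, Kif11, Kif20a and Cdc20 did not pass in KO FT (edgeR, adjusted p = 0.654, 0.0915, 0.735 and 0.567). In WT FT, Tpx2, Smc4 and Smc2 did not pass between the high groups (edgeR, adjusted p = 0.443, 0.0767 and 0.42), and Kif20a fell (-0.65, adjusted p = 0.00804). Between the low groups of WT FT, Kif20a rose instead (1.27; edgeR, adjusted p = 1.28e-05). Mki67 and Top2a, which did not pass in KO FT averaged over the sexes, rose between its low groups (1.00 and 1.08; edgeR, adjusted p = 0.00845 and 0.000424).

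The male and female responses to aGC were compared by the difference of their changes, since a call in a single sex does not show that the sexes differ. The difference is signed, so that responding more means a higher log2 change, also where the other sex fell. In KO FT 20 members responded more in males and 4 more in females (25.3% and 21.4% of all tested genes), and in WT FT 22 and 4 (24.2% and 23.5%). The median difference, male minus female, was 0.94 in KO FT and 1.09 in WT FT on the log2 scale, against 0.04 and -0.01 over all tested genes. Among the larger differences were Ccnb2 (6.39 ± 0.44) and Prc1 (3.68 ± 0.49) in KO FT and Kif11 (5.69 ± 0.64) and Spc25 (3.04 ± 0.31) in WT FT. Racgap1 and Kif23 had the opposite sign, at -2.84 ± 0.17 and -3.17 ± 0.43 in KO FT and -2.32 ± 0.17 and -3.39 ± 0.40 in WT FT. The CD8 genes differ between the same groups, and their part in these differences was not tested. Over the 8 groups the median gap between the sexes was 0.82 in log2 CPM for the members, against a median SD within a group of 0.25. For the 48 S phase genes the gap was 0.34 with an SD of 0.10, and for all tested genes 0.41 with an SD of 0.18.

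Genes of S phase, which precedes mitosis, were read in the same libraries. Of 48 genes of S phase entry and replication 44 rose and 1 fell in KO FT (median log2 change 1.09) and 45 rose in WT FT (median 1.55). Of all tested genes 28.1% rose and 30.1% fell in KO FT, and 30.9% rose and 37.5% fell in WT FT. In all 4 strata 39 of the 48 rose (81.2%), against 10.6% of all tested genes. The helicase subunit gene Mcm2 had 1.38 ± 0.03 in KO FT and 2.21 ± 0.04 in WT FT. Mcm5 had 1.77 ± 0.04 in KO FT and 2.14 ± 0.04 in WT FT. Rrm2, a subunit of ribonucleotide reductase, changed by 1.00 ± 0.08 in KO FT and 2.89 ± 0.08 in WT FT. The helicase subunit gene Mcm3 changed by 1.68 ± 0.04 in KO FT and 2.32 ± 0.04 in WT FT. The S phase genes that did not pass included Gins4 and E2f2 in KO FT (0.05 ± 0.04 and 0.50 ± 0.27) and Gins3 and E2f2 in WT FT (-0.07 ± 0.06 and -0.16 ± 0.27). The median SD within a group was 0.10 log2 CPM for S phase genes and 0.25 for mitosis genes, and S phase genes had higher levels per kb. The difference between the lists was not tested.

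**Figure D5:**
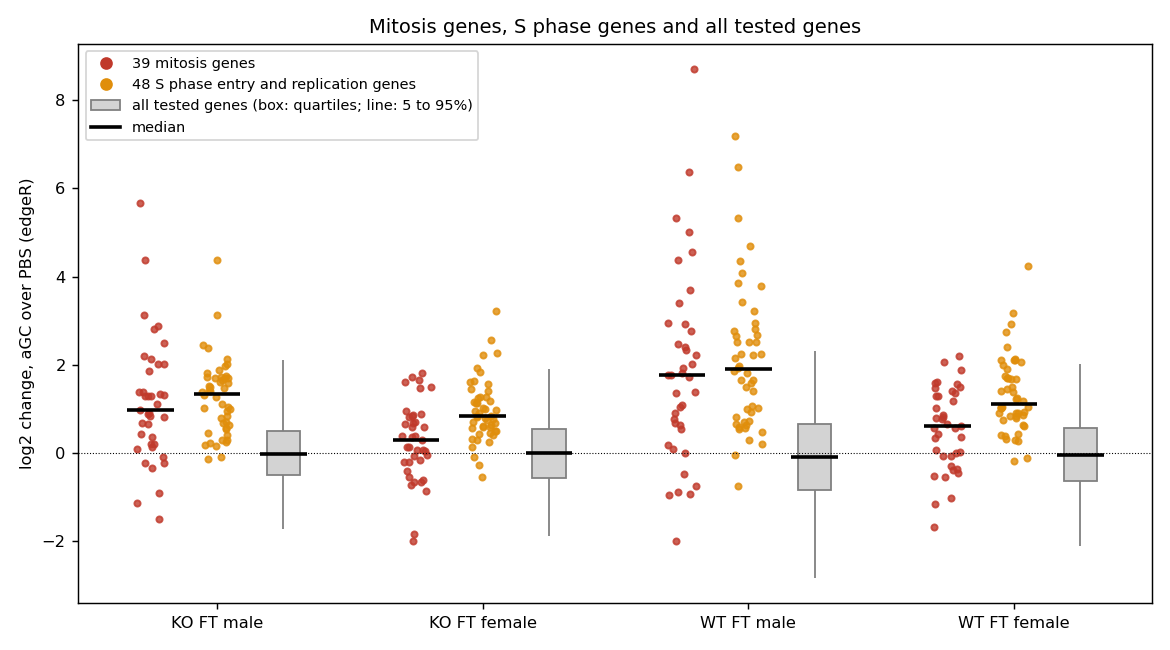
Log2 change (aGC over PBS, edgeR) of the 39 mitosis genes, the 48 S phase genes and all tested genes in KO FT males, KO FT females, WT FT males and WT FT females; points are genes, bars medians, and boxes the quartiles of all tested genes with lines from 5 to 95%. The mitosis median was 0.97 and 0.30 in KO FT males and females and 1.76 and 0.61 in WT FT males and females, and the S phase median 1.35 in KO FT males, 0.84 in KO FT females, 1.90 in WT FT males and 1.11 in WT FT females.

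A further 53 genes of mitosis outside the list gave counts of 33 higher and 5 lower in KO FT and 37 higher and 5 lower in WT FT. Their medians were 0.70 and 1.39, and 10 of the 53 rose in all 4 strata (18.9%). The shares of all tested genes were 28.1% higher and 30.1% lower in KO FT, 30.9% and 37.5% in WT FT, and 10.6% higher in all 4 strata. Trip13, which helps to switch the checkpoint off, rose by 2.30 ± 0.15 in KO FT and 2.82 ± 0.14 in WT FT. Tacc3, a spindle protein, rose by 0.93 ± 0.08 in KO FT and 1.66 ± 0.08 in WT FT. Pttg1, the securin that guards sister cohesion, fell in both (-0.76 ± 0.05 in KO FT and -0.53 ± 0.05 in WT FT). Of 12 genes of the switch from G2 to mitosis 7 rose and 1 fell in KO FT, and 9 rose and 1 fell in WT FT. The inhibitory kinase Wee1 rose by 1.83 ± 0.12 in KO FT and 2.25 ± 0.12 in WT FT. The kinase subunit Cks1b rose by 1.17 ± 0.06 in KO FT and 1.71 ± 0.06 in WT FT. The phosphatase Cdc25b fell in both (-0.81 ± 0.07 in KO FT and -1.13 ± 0.07 in WT FT).

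Of 20 regulators of G2 and mitosis transcription 12 rose and 3 fell in each transplant group. For all tested genes the shares were 28.1% and 30.1% in KO FT, and 30.9% and 37.5% in WT FT. Mybl2, which encodes B-Myb, averaged 10.3 ± 3.35 CPM in aGC males against 4.72 ± 0.425 in PBS males of KO FT, and 12.2 ± 0.664 in aGC males against 1.66 ± 0.204 in PBS males of WT FT (SD, n = 3). It rose by 1.32 ± 0.18 in KO FT and 2.41 ± 0.18 in WT FT, averaged over the sexes. Foxm1, the later activator of the same genes, had group means of at most 4.87 CPM, rose in WT FT (1.78 ± 0.37; edgeR, adjusted p = 0.00018) and did not pass in KO FT (0.39 ± 0.35; adjusted p = 0.367). Tfdp1, a partner of E2F factors, rose in both (1.30 ± 0.04 in KO FT and 1.59 ± 0.04 in WT FT). Rbl2, a pocket protein of the DREAM complex, fell in both (-0.27 ± 0.05 in KO FT and -1.13 ± 0.05 in WT FT). Of 7 G1 cyclins and kinases 5 rose and 2 fell in KO FT, and 4 rose and 2 fell in WT FT. Those that rose included the kinase Cdk4 (0.76 ± 0.03 in KO FT and 1.14 ± 0.03 in WT FT) and the growth regulator Myc (1.76 ± 0.05 in KO FT and 2.12 ± 0.05 in WT FT). Of 6 tested CDK inhibitors 1 rose and 3 fell in KO FT, and 2 rose and 4 fell in WT FT. Cdkn1b fell (-1.12 ± 0.11 in KO FT and -1.62 ± 0.11 in WT FT), and Cdkn1a rose (2.66 ± 0.19 in KO FT and 2.35 ± 0.19 in WT FT).

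The signed log2 response to aGC was lower in KO FT than in WT FT for more members than it was higher. The difference of the responses, KO FT minus WT FT, was lower for 15 members and higher for 5, with a median of -0.42, where 22.6% of all tested genes were lower and 21.9% higher with a median of 0.01. Cdk1 (-1.75 ± 0.24), Aurkb (-2.58 ± 0.27), Plk1 (-1.46 ± 0.23) and Cdc20 (-1.14 ± 0.14) responded less in KO FT, with adjusted p between 1.06e-07 and 1.61e-05 (edgeR). The signed difference was higher for 5 members: Ccnb2 (3.22 ± 0.28), Kif4 (2.50 ± 0.53), Tpx2 (1.30 ± 0.23), Ncapd2 (1.20 ± 0.20) and Smc4 (0.36 ± 0.10). Of these, Ccnb2, Tpx2, Ncapd2 and Smc4 fell in WT FT averaged over the sexes, so the sign does not by itself mean a larger response. Ccnb1 (0.14 ± 0.17), Ncaph (-0.17 ± 0.12) and Ncapg (-0.29 ± 0.24) did not pass. Of 48 S phase genes 36 had a lower response in KO FT and 2 a higher one, with a median difference of -0.46.

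The lower response of the mitosis genes in KO FT depended on which groups were read. Between the groups with low CD8 genes alone (aGC males against PBS females) 4 members were lower and 3 higher with a median of -0.04, where 20.7% of all tested genes were lower and 22.8% higher. Between the groups with high CD8 genes (aGC females against PBS males) 19 were lower and 5 higher with a median of -0.97 (18.7% and 15.4% of all tested genes). Cdk1, Plk1, Top2a and Cdc20 did not pass in the low groups (edgeR, adjusted p = 0.0618, 0.465, 0.608 and 0.175), and Aurkb did (-0.95 ± 0.34). With 1 profile per group no member passed (edgeR, 1 higher and 1 lower at an unadjusted p under 0.05), nor did any of the tested genes. Unadjusted, 358 of the 15953 tested genes were higher and 270 lower. The part of CD8 T cells in the difference was not tested.

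After aGC the level was lower in KO FT than in WT FT for 22 members and higher for 3, with a median log2 difference of -0.52 (26.5% of all tested genes were lower and 25.4% higher). Every KO FT aGC library lay below every WT FT aGC library for 8 members (9.39% of all tested genes) and above for 1, Incenp (6.75%). The 8 were Cdk1 (-1.20 ± 0.15), Ccnb1 (-1.15 ± 0.11), Aurkb (-1.34 ± 0.17), Birc5 (-0.53 ± 0.12), Spc24 (-1.06 ± 0.13), Nuf2 (-0.93 ± 0.18), Kif2c (-0.53 ± 0.24) and Ube2c (-1.36 ± 0.17). Higher in KO FT were Ccnb2 (0.43 ± 0.16), Incenp (0.38 ± 0.10) and Ncapd2 (0.51 ± 0.14). After PBS 9 members were higher and 11 lower in KO FT than in WT FT (14.6% and 14.8% of all tested genes), with a median of -0.04, and only Tpx2 was without overlap, lower in KO FT (1.89% of all tested genes were lower and 1.67% higher without overlap). Ccnb1 was lower in KO FT after PBS as well (-1.28 ± 0.13), and its response did not pass the test of a difference. Averaged over the sexes, Aurkb (1.24 ± 0.21), Kif11 (2.50 ± 0.33) and Cdk1 (0.55 ± 0.19) were higher in KO FT after PBS, where WT FT males held means of 0.471, 0.0966 and 1.07 CPM. In PBS females alone, the KO FT libraries lay below the WT FT ones for Aurkb, above them for Kif11 and overlapped them for Cdk1.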

How the data were processed

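RNA of iNKT cells was sequenced in 24 libraries (8 groups of 3, grouped by the labels' treatment, transplant and sex), by an unstranded preparation. Deposited values are estimated counts per gene, made by the authors with kallisto on GRCm38 (mm10), per the submitters' processing notes; the kallisto version and annotation release are not given in those notes. All columns of the table were used (0 left out). Of 55335 gene IDs 55154 had a symbol. Estimated counts were rounded to whole numbers, filtered with filterByExpr (minimum count 10, minimum total 15) and fitted with edgeR 4.0.16 in R 4.3.3: TMM scaling, quasi-likelihood test, a mean for each of the 8 groups (16 residual degrees of freedom) and 11 contrasts, each adjusted by Benjamini-Hochberg over the 15953 genes tested. Libraries of a group differed by more than sampling noise (chi-square per degree of freedom 4.10 to 16.4 over 24 pairs), so each was counted. The test was checked on simulated counts. Alternatives were DESeq2 1.42.0, limma-voom 3.58.1, DESeq2 size factors, library totals, other filters and thresholds, the replicate block, each library left out, 1 profile per group, and contrasts between groups of low or of high Cd8a (the second chosen after seeing the data). Levels per kilobase use exon lengths of the reference annotation, and figures were drawn in Python 3.11.15.

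Members and lists were chosen with earlier results of these data known. Values per library are given for Mki67, Top2a, Cdk1, Ccnb1, Plk1 and the 2 members of each of 7 roles with the highest mean CPM. Each other list is represented by at most 4 genes of lowest adjusted p and at most 2 not called, with Mcm2, Mcm5, Rrm2, Foxm1, Mybl2, Cdkn1a and Cdkn1b in any case. Kif23, Ncaph and other members named with values were chosen after their values were seen.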

Additional observations from a re-analysis of the deposited data

Results flagged for a closer look

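The response to aGC differed between the transplant groups by edgeR's test of the difference itself (KO FT minus WT FT, log2 scale). The signed difference was higher for 5 mitosis genes and lower for 15, where 21.9% and 22.6% of all tested genes were. Among the 20 were Ccnb2, with a difference of 3.22, Aurkb with -2.58, Cdc20 with -1.14 and Cdk1 with -1.75. Between the groups of low Cd8a the difference was higher for 3 and lower for 4 (median -0.04), where 22.8% and 20.7% of all tested genes were. Neither Cdk1 (edgeR, adjusted p = 0.0618) nor Cdc20 (adjusted p = 0.175) passed there. With 1 profile per group 0 passed (edgeR, 1 higher and 1 lower at an unadjusted p under 0.05). Unadjusted, 358 of the 15953 tested genes were higher and 270 lower.

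The response also differed between the sexes (male minus female), and responding more again means a higher signed log2 change. In KO FT 20 mitosis genes responded more in males and 4 more in females (25.3% and 21.4% of all tested genes), with differences of -2.84 for Racgap1, 6.39 for Ccnb2, 1.63 for Ncaph, 1.32 for Smc2 and -3.17 for Kif23. In WT FT 22 responded more in males and 4 more in females (24.2% and 23.5%), with differences of -2.32 for Racgap1, 2.26 for Ndc80, 3.04 for Spc25, 5.69 for Kif11 and -3.39 for Kif23. The CD8 genes Cd8a and Cd8b1 also responded in opposite directions in the sexes, and their part in these differences was not tested.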

How the results depend on the processing

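Counts of mitosis genes are given here as higher or lower. The share of all tested genes stands beside them for the Cd8a contrasts, and further above for the aGC response with 1 profile per group. For the other settings it is not given. Against a fold of 1.5, 9 were higher and 0 lower in KO FT and 0 lower in WT FT, with 0 S phase genes lower in KO FT; 5 were higher and 1 lower in KO FT females, 1 lower in WT FT females and 3 lower in WT FT males. On the same test the response of 8 was lower in KO FT than in WT FT. Between KO FT and WT FT 0 were higher and 7 lower after aGC, and 3 higher and 3 lower after PBS. In KO FT 12 responded more in males, and in WT FT 2 responded more in females. With 1 profile per group 0 were higher and 0 lower in KO FT, 4 higher and 0 lower in WT FT, and 0 passed in either direction for the difference of responses, after aGC (2 lower at an unadjusted p under 0.05, edgeR) and after PBS (3 lower unadjusted), while 13 S phase genes were higher and 0 lower in KO FT. Between the groups of low Cd8a 16 were higher and 2 lower in KO FT (25.6% and 24.3% of all tested genes). The signed response there was higher in KO FT than in WT FT for 3 and lower for 4 (22.8% and 20.7%). Between those of high Cd8a 2 were lower in KO FT (27.4% of all tested genes). In these contrasts 5 named values that passed in either fit changed sign. They were Cdc20 in KO FT (-0.1053, high Cd8a), Tpx2 in WT FT (0.1967, high), Kif20a in WT FT (-0.6492, high), Ube2c in WT FT (-0.1995, low) and the Bub1b difference of responses (0.0481, low). The cause was not tested. Sign changes where neither fit passed, such as that of Kif23 in WT FT between the low groups, are not among the 5. With library totals, which moved the median of all tested genes in WT FT to -0.258, against -0.109 with TMM, 1 S phase gene was lower in WT FT, 5 mitosis genes were lower in KO FT males and 4 in WT FT females, and 6 were higher in KO FT than in WT FT after aGC. Without a filter 4 were lower in WT FT females, with a minimum count of 30 5 were lower in KO FT males, and at an adjusted p under 0.01 3 were lower in KO FT females. Leaving out each library gave 24 to 27 higher and 1 to 2 lower in KO FT, 26 to 29 higher and 5 lower in WT FT, and 43 to 45 S phase genes higher and 1 lower in KO FT and 45 to 46 higher and 0 lower in WT FT. It gave 11 to 17 higher and 3 to 7 lower in KO FT females, 24 to 27 and 3 to 4 in KO FT males, 16 to 19 and 2 to 3 in WT FT females, and 26 to 27 and 6 in WT FT males. The difference of responses was higher for 5 and lower for 14 to 16, KO FT against WT FT higher for 2 to 4 and lower for 22 to 24 after aGC and higher for 8 to 9 and lower for 11 to 12 after PBS, and males against females higher for 16 to 21 and lower for 3 to 5 in KO FT and higher for 21 to 24 and lower for 3 to 5 in WT FT. The fewer lower calls in KO FT females (3) came without PBS female replicate 2, and the 2 lower calls in KO FT without PBS female replicate 3, PBS male replicate 1 or aGC female replicate 2. Single calls were lost in WT FT for Racgap1 without any 1 of 5 libraries (adjusted p 0.0547 to 0.0907, edgeR) and for the Aurka difference without any 1 of 11 (0.0504 to 0.0967), and gained for Smc4 in KO FT without aGC male replicate 3 (0.0265) and for the Mki67 difference without any 1 of 3 (0.0109 to 0.0491). The replicate numbers do not pair the libraries (84 same-numbered pairs, highest correlation 0.0915, 0 over 0.1; 7 of 24 libraries closest to their own number); with the replicate block 21 members in place of 20 responded more in males in KO FT, and the other counts stayed the same. Of 2052 values of named genes under alternatives, 1919 kept their side of the threshold, 112 lost the call and 16 gained it. A further 5 changed sign with a call in either fit. Sign changes where neither fit passed are among the 1919. Low counts limit Ccnb2, Bub1, Ttk, Cenpf, Kif11, Kif2c and Kif4, each with a library at 0.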
